A study of Mus musculus with 24 samples.

Results

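The genes that encode the proteins of the cytosolic ribosome were followed across 24 livers of male C57BL/6JAusb mice. Members were protein-coding genes whose symbols begin with Rpl or Rps and a digit, together with Rpsa, Rplp0, Rplp1 and Rplp2, that reached 0.5 CPM (counts scaled to library size) in 2 or more livers. Pseudogenes named -ps, the Rps6k kinases and the mitochondrial ribosomal protein genes were left out. Of 86 candidate genes, 85 reached the filter, among 19381 genes kept of 53467 in the table. The exception was Rpl10l, a testis paralog of Rpl10, with 4 counts in all 24 livers. The 85 genes comprised 51 of the large subunit by name and 34 of the small subunit. Both names admitted only by their spelling, Rpl7l1 and Rps19bp1, belong to genes that are not core subunits of the mature ribosome.

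All mice received a plasmid for the Sleeping Beauty transposase (SB, 0.8 µg) by hydrodynamic tail vein injection, which delivers DNA mainly to hepatocytes. SB/AKT/c-Met mice also received plasmids for myristoylated AKT and c-Met, and SB/AKT/NRas mice received plasmids for myristoylated AKT and the active NRasV12, at 10 µg each. Thioacetamide (TAA), a hepatotoxin, or saline was then given by intraperitoneal injection. TAA was dosed at 100 and later 200 mg/kg in 10 to 11 injections over 5 to 6 weeks, from 8 to 10 days after the plasmids, in mice that were 14 to 15 weeks old when the plasmids were injected. The groups held 4 SB + saline, 4 SB + TAA, 3 SB/AKT/c-Met + saline, 4 SB/AKT/c-Met + TAA, 4 SB/AKT/NRas + saline and 5 SB/AKT/NRas + TAA livers. No group received the oncogene plasmids without SB, and each library was made from bulk tissue of 1 mouse, so that fewer cells of a type and less RNA per cell cannot be told apart.

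A ribosome is assembled from ribosomal RNAs and many different proteins, and growing cells spend much of their transcription on its parts. The mRNAs of most ribosomal proteins begin with a 5′ terminal oligopyrimidine (TOP) tract, an uninterrupted stretch of C and T in the DNA, through which mTORC1 controls their translation. AKT activates mTORC1, and MYC and RNA polymerase I support ribosome production. In liver, ribosome production increases when hepatocytes re-enter the cell cycle. None of these activities was measured here, only transcript counts.

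The stretch around the annotated transcript start is shown for 5 of the called members, because the TOP tract is the sequence these genes are known to share. The 5 were chosen, after the windows were seen, as examples whose longest run lay across the start, lay before it, or was shorter than 7 bases. RefSeq promoters of the GRCm38.p6 build were matched by symbol for 65 of the 85 genes. Each line gives 15 bases before and 15 bases from the annotated start, 5′ to 3′ on the transcript strand, and capitals mark the longest run of C or T where it reached 7 bases.
Rpl35, chr2:39005117-39005146, minus strand: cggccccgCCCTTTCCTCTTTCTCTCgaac
Rps15a, chr7:118116133-118116162, minus strand: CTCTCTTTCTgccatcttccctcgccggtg
Rplp2, chr7:141447636-141447665, plus strand: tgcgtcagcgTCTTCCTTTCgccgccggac
Rplp0, chr5:115559452-115559481, plus strand: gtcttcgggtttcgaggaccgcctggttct
Rpl41, chr10:128549154-128549183, minus strand: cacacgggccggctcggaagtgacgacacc
A run of at least 7 bases, each C or T, was found in this 30-base window for 34 of 65 genes (52.3%) and for 21.3% of the 27025 genes of the promoter table. On the opposite strand, which reads as a run of A or G, the shares were 7.69% and 23.1%. The longest run lay across the annotated start in Rpl35 and Rplp2 and ended before it in Rps15a. A second, shorter run of C and T in Rps15a, not in capitals, lay across its start. The windows of Rplp0 and Rpl41 held no run of 7 bases. Annotated starts may lie some bases from the start used in liver, and a match or its absence describes these letters only.

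The libraries held 2152510 to 3399247 counts each, of which 0.62 to 1.396% fell on the 85 genes. Members averaged between 0.1346 CPM (Rpl39l) and 644.1 CPM (Rpl41), with a median of 46.99 CPM against 4.271 CPM over all genes tested. Of the members, 15 lay above 200 CPM and 22 below 5 CPM. Per kilobase of exon, Rplp1, an acidic protein of the ribosomal stalk, had the highest level, at 1032 CPM per kb, followed by Rps27l at 787.4 and Rpl41 at 551.4 CPM per kb. The libraries were polyA-primed with unique molecular identifiers, so counts need not scale with length, and this order depends on the division. Exon length spans all annotated isoforms, at 6256 bases for Rps24 against 1613 bases in its principal transcript. The members with low counts included proteins that every ribosome contains. Rps6, the small subunit protein phosphorylated by S6 kinases, averaged 0.5247 CPM (0 to 1.39 CPM in any liver), Rpl10 averaged 1.325 CPM and Rps27 averaged 1.604 CPM.

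The levels moved with sequence sharing, whose part in them was not tested. Ribosomal protein genes have many processed pseudogenes, and the deposited counts kept only reads with a mapping quality of at least 10, which drops reads that fit several places. Of the 85 members, 81 shared at least one 50-base tag of their principal transcript with another annotated gene. The share of tags found in no other gene was 1.4% for Rps27, 7.9% for Rpl10 and 15.4% for Rps6, against 77.6% for Rps27l. The 35 members with over 50% unique tags had a median of 114.3 CPM, and the other 50 had 18.33 CPM. Over the 85 genes, CPM per kb and the unique share had a Spearman rho of 0.453 and a Pearson r of 0.4 on the log2 scale, as a description. The unique share was taken over the whole transcript, whereas reads of polyA-primed libraries may come mainly from its 3′ end. Both values also carry the division by exon length. Rpl3l and Rpl39l, both at 100%, had 1.325 and 0.1346 CPM. Apart from sums and the shares of paralogs, levels below compare 1 gene between livers.

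**Figure D1:**
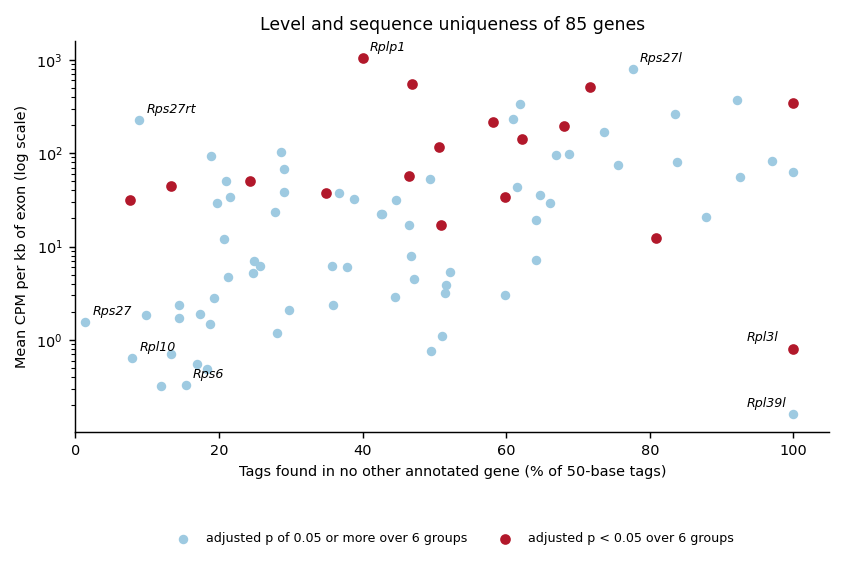
Mean CPM per kilobase of exon (log axis) of each of the 85 genes against the percent of its 50-base tags found in no other annotated gene. Red points passed the test over the 6 groups. Rps27, Rpl10 and Rps6 sit at the lower left, and Rpl3l and Rpl39l sit low at 100%.

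In the sum over the 85 genes, TAA-treated livers were on average higher than their saline counterparts, and SB/AKT/c-Met + saline livers were the lowest. Libraries were scaled by trimmed mean of M-values (TMM), which sets the bulk of genes level between livers. The summed level was 8391, 7593, 8811 and 8891 CPM in the 4 SB + saline livers and 11188, 8776, 10683 and 12208 CPM in the 4 SB + TAA livers. SB/AKT/c-Met + saline livers had 6314, 7455 and 7062 CPM, and SB/AKT/c-Met + TAA livers had 9514, 9277, 10737 and 9404 CPM. SB/AKT/NRas + saline livers had 7838, 8315, 10424 and 7651 CPM, and SB/AKT/NRas + TAA livers ranged from 9447 to 10436 CPM around a median of 10257 CPM. The TAA and saline groups did not overlap with AKT/c-Met, whereas with SB alone 1 TAA liver (8776 CPM) and with AKT/NRas 1 saline liver (10424 CPM) lay within the other group. The group means were 8422 ± 594 (SD, n = 4), 10710 ± 1440 (n = 4), 6944 ± 580 (n = 3), 9733 ± 676 (n = 4), 8557 ± 1280 (n = 4) and 10040 ± 452 CPM (n = 5) in the same order. The sum has no test, because the members were chosen as a list.

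**Figure D2:**
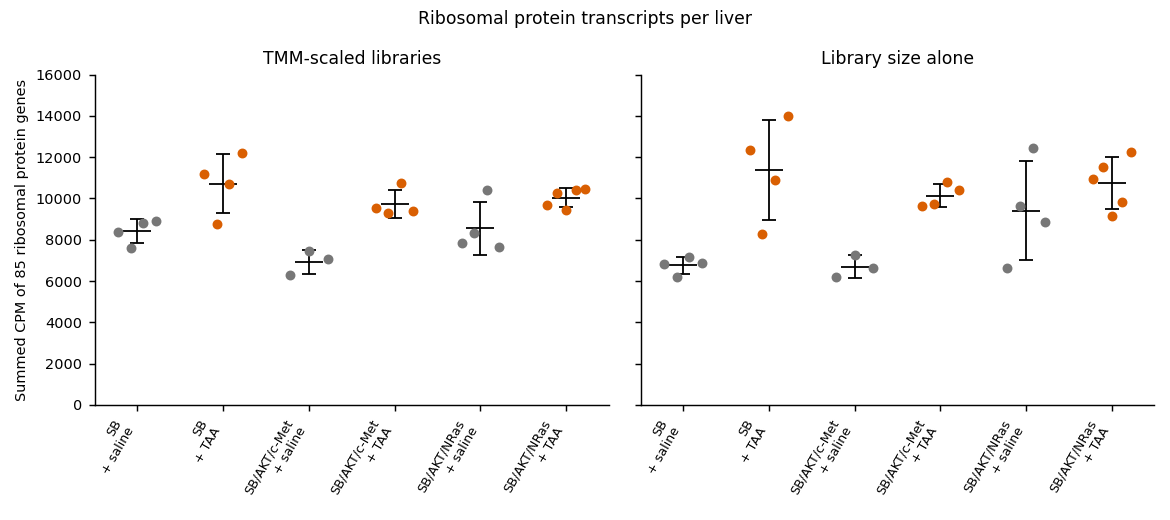
Summed CPM of the 85 genes in each liver (points, grey for saline and orange for TAA) with group mean and SD, in TMM-scaled libraries and with library size alone. SB + saline means were 8422 CPM with TMM and 6774 CPM without it, and both panels place SB/AKT/c-Met + saline near or below SB + saline.

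The size of this difference depended on the scaling. TMM factors were 0.7719 to 0.8175 with saline and 0.9432 to 1.145 with TAA in SB livers, so that without them the means were 6774 ± 409 and 11360 ± 2420 CPM. Over all genes, the median log2 fold change between these groups was 0.0851 with TMM and 0.465 with library size alone, and all fold changes below are relative to the TMM scale. The share of sequencing records assigned to genes also differed, at 15.6 to 16.69% with saline and 20.68 to 23.13% with TAA, and its part in the result was not tested. The ribosomal protein pseudogenes, 167 of 284 of which passed the filter, had 2869 ± 203 and 3589 ± 505 CPM in the same livers. Leukocyte markers, 9 of 10 of which passed the filter, summed to 115.1 to 214.9 CPM in SB + saline and 241.2 to 332.1 CPM after TAA, and proliferation markers (5 of 5) to 8.067 ± 2.8 and 75.18 ± 29.6 CPM. Cholangiocyte markers (5 of 5) summed to 56.07 to 96.24 and 129.9 to 239.5 CPM, and stellate cell markers (5 of 5) to 174.5 to 289.1 and 296.8 to 521.7 CPM, in the same order. Of the cholangiocyte markers 0 passed the test, with 4 above 0 in log2 fold change and 1 below. Spp1 alone had 40.2 to 50.1 and 103 to 195 CPM, while Sox9 had 5.56 to 47.7 and 22.5 to 33.9 CPM. The part of all these markers in the ribosomal protein result was not tested. Hepatocyte markers (8 of 8, albumin among them) were detected in every library, at 107200 to 127500 CPM with saline and 93930 to 122700 CPM with TAA.

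Of the 85 genes, 17 (20%) differed among the 6 groups at an adjusted p below 0.05, against 9.01% of all genes tested (edgeR quasi-likelihood F test, Benjamini-Hochberg over 19381 genes). The 6 with the smallest p were Rpl35 (adjusted p = 0.000633), Rplp1 (0.00129), Rplp0 (0.00401), Rpl3l (0.00456), Rps15a (0.00687) and Rpl32 (0.0109). Rps19, Rpl41 and Rplp2 followed among the named genes, at 0.0111, 0.0145 and 0.0195. SB + TAA had the highest group mean for 54 of 85 members and for 19.8% of all genes, and SB/AKT/c-Met + saline had the lowest for 67 of 85 members and for 16.6% of all genes. The count of 17 became 9 without SB + TAA replicate 4, 11 without SB + TAA replicate 1 and 10 without SB/AKT/c-Met + saline replicate 3. Over all fits that left out 1 liver, it ranged from 9 to 23. Shares of all genes called are not given for such fits, here or below, so their counts compare fits only.

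The comparison of SB + TAA with SB + saline addressed chronic injury without oncogenes, and 9 members rose and 0 fell. Of all genes, 3.48% rose and 2.51% fell. Of the 85 members, 77 had a log2 fold change above 0, with a median of 0.30 against 0.0851 over all genes tested. By p, Rpl35, Rps15a and Rps19 came before the stalk genes Rplp0 and Rplp1. The stalk, formed by Rplp0 with Rplp1 and Rplp2, recruits the translation factors that bind GTP. In 13 members all TAA livers lay above all saline livers, against 6.52% of all genes.

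Rpl35 (ENSMUSG00000062997, chr2:39001580-39005624, GRCm38), a large subunit protein near the exit of the peptide tunnel, had 34.2, 31.8, 32.1 and 32.5 CPM in SB + saline and 50.4, 40.7, 52.6 and 60 CPM in SB + TAA. The groups did not overlap, and the log2 fold change was 0.64 ± 0.14 (SE; adjusted p = 0.00785, edgeR). Rps15a (chr7:118104372-118116188), a small subunit protein, had 80.5, 73.3, 83.4 and 81.3 CPM in SB + saline and 152, 98.7, 131 and 152 CPM in SB + TAA, with a log2 fold change of 0.75 ± 0.17 (adjusted p = 0.00861, edgeR). Its 4 TAA livers all lay above the saline livers. Rplp0 (chr5:115559467-115563727), the scaffold of the stalk, had 280, 251, 286 and 290 CPM against 444, 334, 427 and 508 CPM, with a log2 fold change of 0.63 ± 0.17 (adjusted p = 0.0266, edgeR). Rplp1 (chr9:61913284-61914542) had 442, 406, 423 and 454 CPM against 620, 498, 624 and 731 CPM, with a log2 fold change of 0.52 ± 0.15 (adjusted p = 0.0331, edgeR). Both stalk genes separated the groups without overlap. Its partner Rplp2 had 68.1, 73.9, 73.4 and 64.2 CPM against 108, 71.8, 96.3 and 126 CPM and did not pass (0.53 ± 0.17, adjusted p = 0.064, edgeR). Rps19 (chr7:24884371-24889806), which is mutated in Diamond-Blackfan anemia, had 206, 181, 215 and 217 CPM against 294, 254, 318 and 343 CPM, with a log2 fold change of 0.56 ± 0.15 (adjusted p = 0.0215, edgeR).

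The other called members covered a wide range of levels. Rpl21 had 5.56 to 8.02 CPM with saline and 7.89 to 17.3 CPM with TAA (0.86 ± 0.26, adjusted p = 0.0445, edgeR), and its groups overlapped. Rpl14 and Rpl10a, named after their values were seen, also passed, with Rpl14 at 157 to 168 against 174 to 274 CPM and Rpl10a at 0 to 0.428 against 1.34 to 1.97 CPM. Rpl10a rested on 1 count in the 4 saline libraries and 20 in the TAA libraries. Among members with a mean of 5 CPM or more, Rpl35a had the lowest log2 fold change, at -0.22 ± 0.24. Rpl5 and Rpl11, which form a particle with 5S RNA that binds the p53 regulator Mdm2, had log2 fold changes of -0.16 ± 0.27 and -0.13 ± 0.22 and did not pass.

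The count of called members in this comparison changed when single livers were left out, and no share of all genes stands beside it. The count was 3, 2, 3 and 4 without SB + saline replicates 1, 2, 3 and 4, and it was 4, 3 and 1 without SB + TAA replicates 1, 3 and 4. Over all 24 fits that left out 1 liver, it ranged from 1 to 13. The member left without SB + TAA replicate 4 was Rps15a, whose call held in 24 of 24 fits that left out 1 liver, whereas that of Rpl35 held in 23. With library size alone, 52 members passed, at a median log2 fold change of 0.702 for the members and 0.465 for all genes. The share of all genes called under that scaling is not given here, so the 52 is no result about the members.

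Rpl3l, a paralog of Rpl3 that replaces it in skeletal and heart muscle, was called on the reads of 1 liver. It had 0 counts in all 4 SB + saline libraries and 0, 3, 0 and 101 counts in the SB + TAA libraries, the last being replicate 4 (27.3 CPM). Over the groups it was at least 24.8-fold higher in SB + TAA, with a floor of 3 counts over the SB + saline group, and without replicate 4 its 3 counts were at that floor. Skeletal muscle markers, 9 of 10 of which passed the filter, summed to 8173 CPM in that liver and to 9.473 to 10.76 CPM in the other SB + TAA livers. Acta1, the skeletal muscle actin, had 1660 CPM there and at most 8.13 CPM in any other liver. Rpl3l also passed between SB/AKT/NRas + TAA and SB + TAA, where its call was lost without SB + TAA replicate 4. Rpl3 itself, in the same liver, had 14.1 CPM, against 5.13 to 12.2 CPM in the rest of the group.

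**Figure D3:**
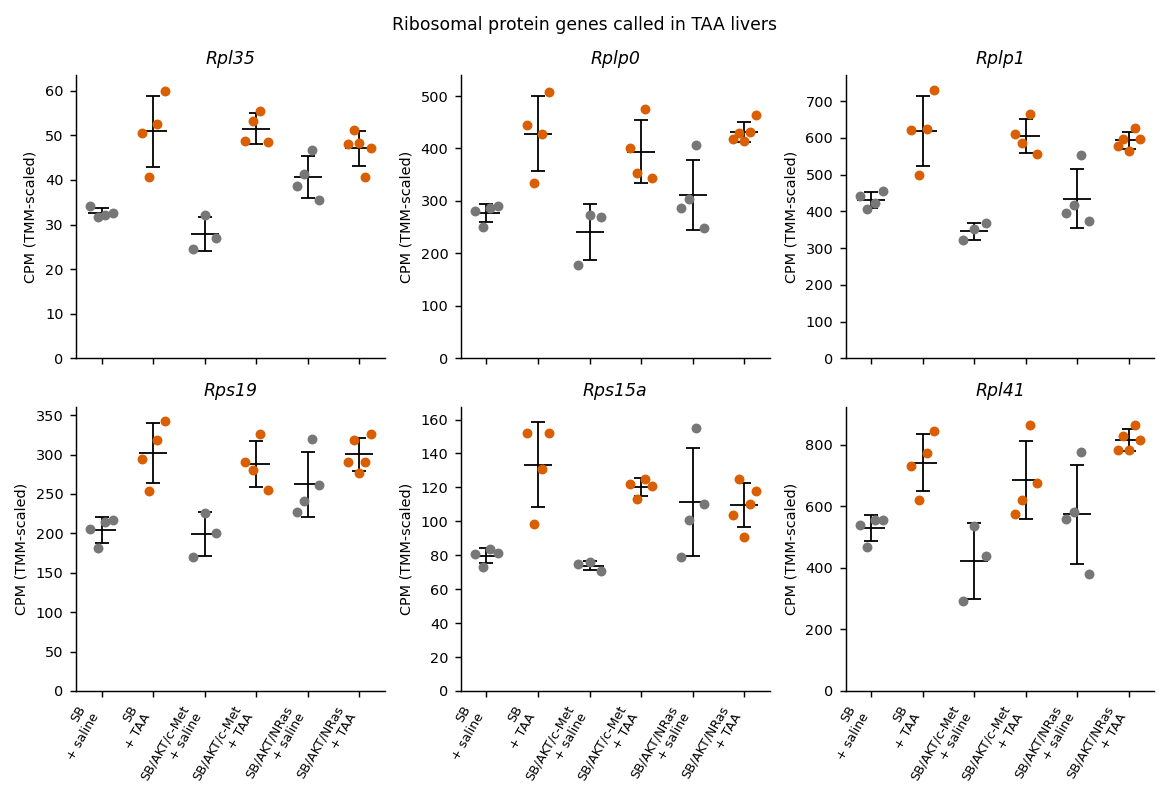
CPM of 6 called members in each liver (grey for saline, orange for TAA) with group mean and SD; every axis starts at 0. TAA livers lie above SB + saline livers in all 6 panels, while at least 1 SB/AKT/NRas + saline liver reaches the level of TAA livers in each panel.

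The oncogenes without injury gave 0 called members in either model with edgeR and with limma-voom, and 0 with c-Met and 3 with NRas in DESeq2. In SB/AKT/c-Met + saline against SB + saline, 0.599% of all genes rose and 0.0413% fell, and 12 members had an unadjusted p below 0.05, against 10.1% of all genes. The log2 fold change was below 0 for 74 of the 85 members, with a median of -0.27 against 0.024 over all genes tested. A further count was of overlap: 20 members lay lower without overlap between the groups, against 4.85% of all genes. Rplp1 had 321, 351 and 367 CPM in SB/AKT/c-Met + saline, below all SB + saline livers (-0.32 ± 0.16, adjusted p = 0.512, edgeR). Rpl32 had 303, 369 and 324 CPM against 408, 386, 401 and 465 CPM (-0.32 ± 0.17, adjusted p = 0.532, edgeR). Rpl19 had the lowest log2 fold change among members of at least 5 CPM, with 6.48, 9.23 and 5.62 CPM against 8.53 to 15.4 CPM. With library size alone the median was -0.01 for the members and 0.284 for all genes, so that the members lay below all genes under both scalings but below 0 only slightly without TMM. Hepatocyte markers summed to 77520 to 88340 CPM in these livers, below all 4 SB + saline livers, and 5 of the 8 lay lower without overlap while 0 passed the test. Their part in the ribosomal protein levels was not tested.

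In SB/AKT/NRas + saline against SB + saline, 5.56% of all genes rose and 2.84% fell, while 5 members had an unadjusted p below 0.05, against 22.4% of all genes. The median log2 fold change of the members was 0.03 against 0.0725 over all genes tested, with 51 members above 0 and 34 below. The 4 livers were uneven. Rps15a had 79.1, 101, 155 and 110 CPM, and Rps19 had 227, 241, 320 and 261 CPM, with replicate 3 the highest of both. That liver also had the highest cholangiocyte marker sum, at 8800 CPM against 150.4, 2578 and 918.7 CPM in replicates 1, 2 and 4. Spp1 made up 8580 CPM of it. Its leukocyte marker sum was also the highest, at 501.4 CPM against 251.1 to 412.3 CPM, but the single markers differed. Lyz2 (296 CPM) and Cd74 (107 CPM) were highest there, whereas Ptprc had 18.2 CPM against 33.8 CPM in replicate 4. Csf1r was lowest there, at 24.4 CPM. Hepatocyte markers summed to 62550 to 98670 CPM in the group, below all SB + saline livers. Of the 8 hepatocyte markers, 6 had a log2 fold change below 0 and 2 above, 1 passed as lower, and 1 lay lower without overlap. The part of all these markers was not tested. Rpl22l1, a paralog of Rpl22 that can replace it, had 40, 47.7, 102 and 40 CPM against 64.6, 27.9, 31.3 and 31.3 CPM in SB + saline (0.57 ± 0.29, adjusted p = 0.251, edgeR). The count was 2 without SB/AKT/NRas + saline replicate 1, the library with the lowest share of records assigned to genes (13.75%). With library size alone 20 members passed, at a median of 0.477 for the members and 0.504 for all genes.

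Oncogenes and injury combined were also compared with SB + saline. For SB/AKT/c-Met + TAA, 2 members rose and 0 fell, against 2.68% and 1.07% of all genes. Rpl35 had 48.8, 53.1, 55.5 and 48.4 CPM, all above the SB + saline livers (0.66 ± 0.14, adjusted p = 0.00768, edgeR). Rps15a had 122, 113, 125 and 121 CPM, also without overlap (0.60 ± 0.17, adjusted p = 0.0432, edgeR). The share of members called (2.35%) was thus near the background. An unadjusted p below 0.05 was found for 16 members (18.8%), near the 17.2% of all genes. Without overlap, 19 members lay higher, against 1400 of 19381 genes tested. The median of the members was 0.18 against 0.0437 over all genes tested, and 67 were above 0. Only Rpl35 kept its call in all 24 fits that left out 1 liver, and Rps15a kept it in 8. The count was 1 without any single liver of SB + saline or of either SB/AKT/c-Met group, without SB + TAA replicate 3, without SB/AKT/NRas + saline replicate 2 and without SB/AKT/NRas + TAA replicates 1, 2 and 4. It was 4 without SB/AKT/NRas + saline replicate 1 or 3.

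For SB/AKT/NRas + TAA against SB + saline, 5 members rose and 0 fell, against 5.7% and 3.55% of all genes, so that the share of members called (5.88%) was near the background. There were 17 members higher without overlap, against 7.89% of all genes. An unadjusted p below 0.05 was found for 19 members (22.4%), near the 23.2% of all genes. Rps19 ranged from 277 to 326 CPM with a median of 290 CPM (0.55 ± 0.14, adjusted p = 0.0111, edgeR). Rplp0 ranged from 415 to 464 CPM (0.64 ± 0.16, adjusted p = 0.0118, edgeR), and Rpl35 from 40.6 to 51.1 CPM (0.52 ± 0.14, adjusted p = 0.0145, edgeR). Rpl41 (chr10:128548114-128549305), the smallest ribosomal protein, had 782, 829, 783, 865 and 815 CPM against 538, 468, 554 and 555 CPM in SB + saline (0.62 ± 0.18, adjusted p = 0.0299, edgeR). Rplp1 ranged from 565 to 627 CPM (0.46 ± 0.14, adjusted p = 0.0367, edgeR). None of these 5 genes overlapped between the groups. The count was 3, 0, 3 and 3 without SB + saline replicates 1 to 4, 3 without SB/AKT/NRas + TAA replicate 1, 2, 4 or 5, and 8 without SB/AKT/NRas + saline replicate 3.

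The addition of TAA to oncogene livers was compared within each model. In SB/AKT/c-Met livers, 76 of the 85 members were above 0 with a median log2 fold change of 0.45, against 0.0152 over all genes tested. In all, 2 members rose and 0 fell, against 0.134% and 0.103% of all genes, and 42 had an unadjusted p below 0.05, against 8.69% of all genes. There were 40 members higher without overlap, against 5.07% of all genes. Rpl35 had 24.5, 32.1 and 27 CPM with saline and 48.8 to 55.5 CPM with TAA (0.88 ± 0.16, adjusted p = 0.00707, edgeR). Rplp1 had 321, 351 and 367 CPM with saline and 611, 587, 665 and 557 CPM with TAA (0.80 ± 0.16, adjusted p = 0.0225, edgeR). Rpl32 (0.72 ± 0.17, adjusted p = 0.0691, edgeR) and Rpsa, the laminin receptor protein of the small subunit (0.72 ± 0.20, adjusted p = 0.151, edgeR), separated the groups but did not pass. The count was 0 without SB/AKT/c-Met + saline replicate 1 or 3, 1 without SB/AKT/c-Met + saline replicate 2 or SB/AKT/c-Met + TAA replicate 1 or 3, 4 without SB/AKT/NRas + saline replicate 1 and 5 without SB/AKT/NRas + saline replicate 3. With DESeq2, 16 members passed, and the share of all genes called with it is not given here.

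In SB/AKT/NRas livers, 0 members passed for TAA against saline, where 0.124% of all genes rose and 0.0516% fell, and 12 members had an unadjusted p below 0.05, against 8.65% of all genes. The median of the members was 0.14 against -0.0248 over all genes tested, with 60 above 0. Rps29, a zinc-binding small subunit protein, had the highest log2 fold change among members of at least 5 CPM, with 9.74 to 10.8 CPM with saline and 12.7 to 16.7 CPM with TAA (0.56 ± 0.18, adjusted p = 0.315, edgeR). With DESeq2, 2 members passed, and with limma-voom 0.

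The TAA-treated groups were compared with each other. For SB/AKT/c-Met + TAA livers relative to SB + TAA, 0 members passed with edgeR, DESeq2 or limma-voom, against 0.268% of all genes that rose and 0.134% that fell, and 5 members had an unadjusted p below 0.05, against 8.91% of all genes. The median of the members was -0.11, with 64 below 0. For SB/AKT/NRas + TAA livers relative to SB + TAA, 1.01% of all genes rose and 0.464% fell, and the 1 called member was Rpl3l, which fell. The median was -0.13, with 67 members below 0. Rpl3 had the lowest log2 fold change of the members of at least 5 CPM in both comparisons, at -0.78 ± 0.32 and -0.60 ± 0.29, and did not pass.

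The TAA effect itself was compared between models, and 0 members passed. For SB/AKT/c-Met against SB, 0% of all genes were higher and 0.0103% lower, and 1 member had an unadjusted p below 0.05, against 8.45% of all genes. For SB/AKT/NRas against SB, 0.175% of all genes were higher and 0.583% lower, and 7 members had an unadjusted p below 0.05, against 14.9% of all genes. The difference for Rps15a was -0.77 ± 0.23 (adjusted p = 0.11, edgeR) and for Rpl35 -0.43 ± 0.20 (adjusted p = 0.301, edgeR), each between SB/AKT/NRas and SB livers. DESeq2 called 0 and 1 members in these tests, and limma-voom 0 in both. All comparisons with SB + saline share those 4 libraries.

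**Figure D4:**
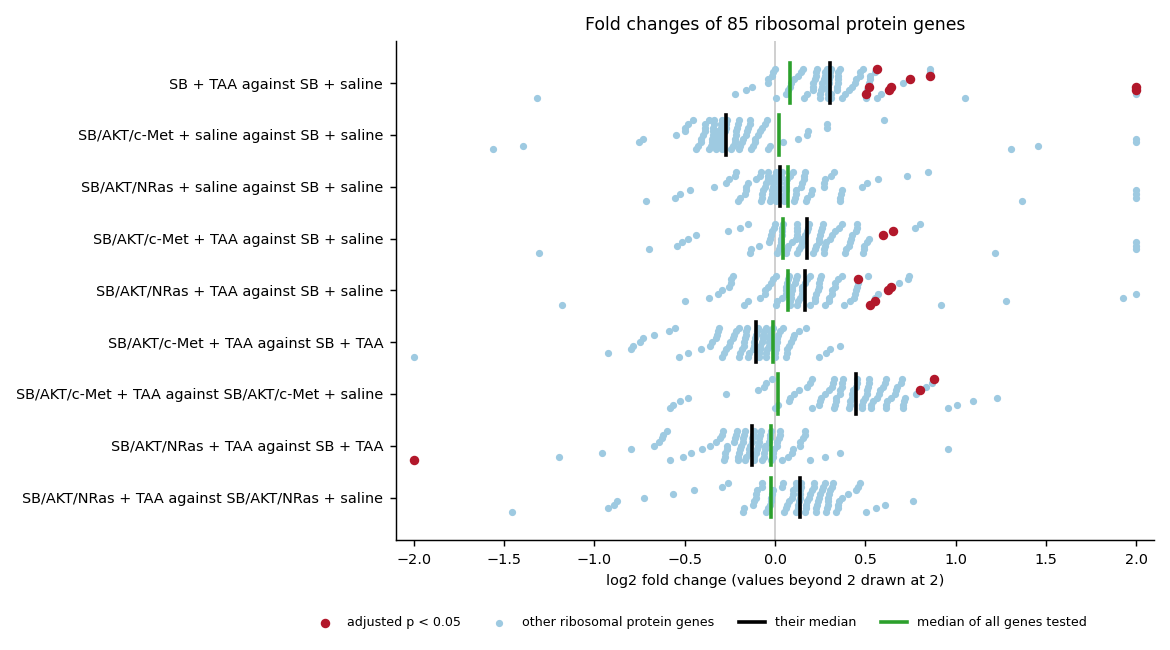
Log2 fold change of each of the 85 genes in 9 comparisons; red points passed at adjusted p below 0.05, black bars mark their median and green bars the median of all genes tested, and 13 of 765 values beyond 2 are drawn at 2. The members sit right of the green bar for TAA against saline in all 3 models and left of it for SB/AKT/c-Met + saline.

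The shift was spread over both subunits and over expression levels. In SB + TAA against SB + saline, the median log2 fold change was 0.302 over the 51 large subunit genes and 0.298 over the 34 small subunit genes. It was 0.305 over 42 members above 50 CPM, 0.277 over 21 members of 5 to 50 CPM and 0.489 over 22 members below 5 CPM. The 35 members with over 50% unique tags had a median of 0.341. The ratio of the summed large subunit genes to the summed small subunit genes was 0.999 ± 0.0224 in SB + saline (SD, n = 4) and 1.054 ± 0.0265 in SB + TAA. With AKT/c-Met the ratios were 0.9846 ± 0.0303 with saline and 1.08 ± 0.0313 with TAA. With AKT/NRas they were 1.052 ± 0.0475 with saline and 1.093 ± 0.0164 with TAA.

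Paralogs among the members are given by their values, since no test compared a paralog with its partner. Rps27l, a p53-responsive paralog of Rps27, had 655, 609, 654 and 714 CPM in SB + saline. It had 525, 595 and 489 CPM in the 3 SB/AKT/c-Met + saline livers, and 502 to 591 CPM in SB/AKT/NRas + saline. Both oncogene groups lay below SB + saline, with log2 fold changes of -0.30 ± 0.15 and -0.27 ± 0.13 that did not pass (adjusted p = 0.503 and 0.23, edgeR). Rps27l had 665 to 739 CPM in SB + TAA. Rps27rt, a retrogene of Rps27, ranged from 65.3 to 110 CPM over all livers. The share of Rpl22l1 in the counts of Rpl22l1 and Rpl22 was 15.6 ± 5.1% in SB + saline, 18.8 ± 1.64% in SB + TAA, and it reached 21.1 ± 6.22% in SB/AKT/NRas + saline. Rpl36al carried 91.7 to 96.9% of the counts of Rpl36al and Rpl36a in the group means, and Rpl39l stayed at 0 to 0.672 CPM beside Rpl39 at 77.2 to 154 CPM. Unique tags made up 36.7% for Rpl36al and 14.5% for Rpl36a, and 42.7% for Rpl22l1 and 75.5% for Rpl22. Reads of low mapping quality were dropped, so these shares do not measure the RNA of a paralog relative to its partner. Rpl7l1 and Rps19bp1 had log2 fold changes of -0.02 ± 0.15 and 0.14 ± 0.14 in SB + TAA against SB + saline. Rps4l, a paralog of Rps4x, is annotated as a pseudogene and was not a member.

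**Figure D5:**
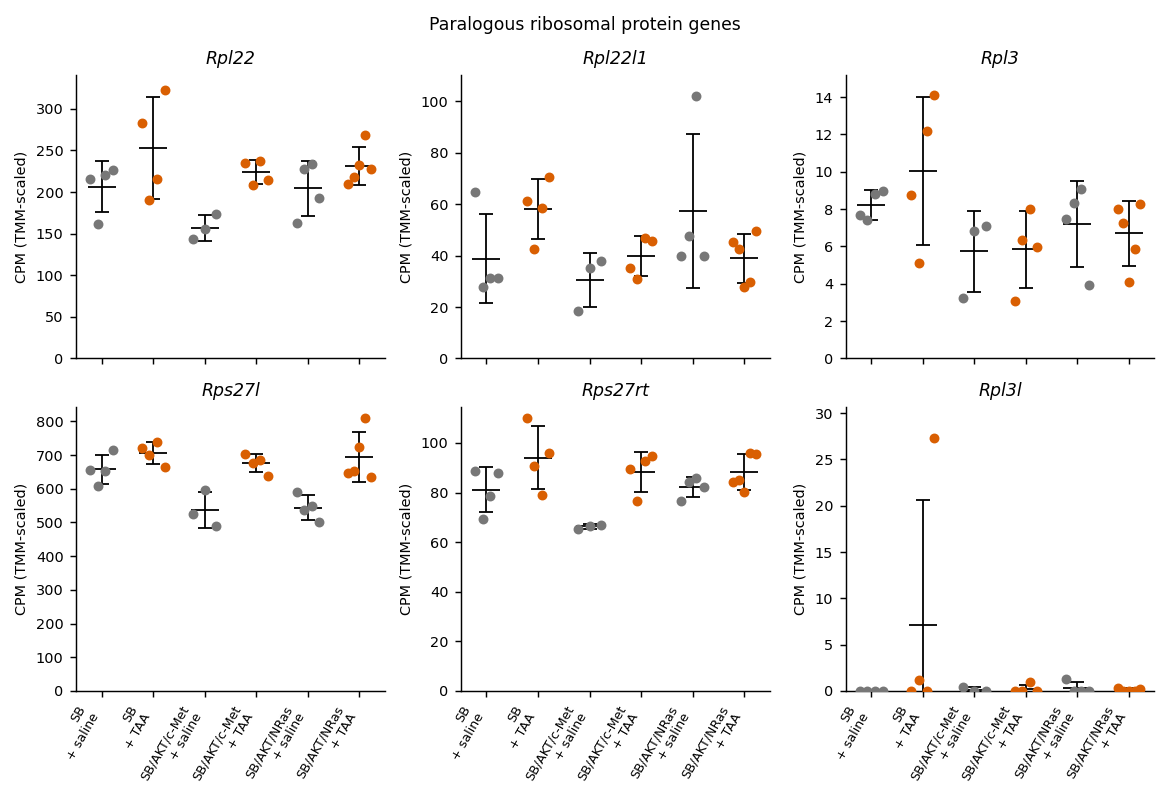
CPM of 6 paralogous members in each liver (grey for saline, orange for TAA) with group mean and SD. Rpl3l is near 0 except at 27.3 CPM in SB + TAA replicate 4, and Rpl22l1 has 1 SB/AKT/NRas + saline liver at 102 CPM.

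Other genes of the pathway were read from fixed lists. In SB + TAA against SB + saline, 6 of 50 ribosome biogenesis factors rose and 0 fell (median log2 fold change 0.26), 1 of 19 translation factors with TOP mRNAs rose (0.21) and 1 of 13 RNA polymerase I genes rose (0.30). One of 18 genes for S6 kinases and mTORC1 fell and 0 rose (0.13), and 0 of 7 MYC family genes passed (-0.18). Of the mitochondrial ribosomal protein genes, which act in a separate ribosome, 1 of 77 rose and 0 fell (0.10). The shares that passed were 12%, 5.26%, 7.69%, 5.56%, 0% and 1.3% in that order, against 5.99% of all genes tested (median 0.0851). The genes named next were each among the 2 of their list with the smallest p over the 6 groups. Nop56, a core protein of the box C/D small nucleolar particles, had 7.02 ± 0.814 CPM (SD, n = 4) in SB + saline and 13.6 ± 4.66 CPM in SB + TAA (0.98 ± 0.25, adjusted p = 0.0217, edgeR). Taf1d, a subunit of the polymerase I selectivity factor, had 25.4 ± 3.24 and 45.7 ± 10.6 CPM (0.85 ± 0.20, adjusted p = 0.00954, edgeR), and Eef1g, a subunit of elongation factor 1, had 30.7 ± 6.03 and 51.4 ± 8.74 CPM (0.74 ± 0.19, adjusted p = 0.0178, edgeR). Eif4ebp2, a translation repressor that mTORC1 inactivates, fell from 97.4 ± 9.65 to 52.2 ± 16.9 CPM (-0.90 ± 0.24, adjusted p = 0.0226, edgeR). Mycn, a MYC family member, rose with AKT/NRas and saline, at 0.349 ± 0.244 CPM in SB + saline and 3 ± 2.36 CPM in SB/AKT/NRas + saline (3.04 ± 0.95, adjusted p = 0.0436, edgeR). In SB/AKT/c-Met + saline, 0 genes of the 6 lists passed, against 0.64% of all genes tested. The medians were -0.15 for TOP translation factors and -0.17 for mitochondrial ribosomal protein genes, beside -0.27 for the cytosolic ones and 0.024 over all genes.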

How the data were processed

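RNA was sequenced from 24 livers, 1 mouse per library, with polyA priming and unique molecular identifiers. Per the labels and the study's methods, the authors aligned reads with STAR to GRCm38 plus human NRAS and MET, removed duplicate identifiers, and deposited raw counts per gene from forward-strand featureCounts with reads below mapping quality 10 dropped. Libraries held 2152510 to 3399247 counts, and the number of livers and these depths limit precision. The deposited biotypes describe single transcripts (24 of 85 members were listed as protein-coding), so GENCODE M21 gene types on GRCm38 were used. Gene lengths came from the deposited table and were used only for CPM per kb. A deposited annotation of the transgenes was not used.

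Genes at 0.5 CPM or more in 2 libraries were tested in edgeR 4.0.16 (R 4.3.3) with TMM scaling, quasi-likelihood fits over 6 group means and Benjamini-Hochberg adjustment; a call is an adjusted p below 0.05 with no fold threshold. The SE of a log2 fold change was derived from the test, as its absolute value divided by the square root of the F statistic. The test was checked on simulated data. Alternatives were RLE factors, library size alone, TMM without the members, DESeq2 1.42.0, limma-voom 3.58.1, other filters, robust estimation, a replicate block, left-out livers, fits of the compared groups only and a fold threshold. Replicates were separate mice. The labels share replicate numbers only as names. Members, lists and tests were chosen with earlier results of these data known. Named genes were paralog pairs, landmark proteins, the 6 smallest p of each test, the extreme folds of each comparison and 2 genes per list. Those 2 had the smallest p of their list over the 6 groups.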

Additional observations from a re-analysis of the deposited data

Results flagged for a closer look

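Of 178 groups of 4 or 5 livers examined for a lone outlying liver, 19 had one. The 5% that the test gives by chance does not hold where all other livers of a group had 0 counts. This was so for Rpl39l, for Rps6 and for Rpl3l outside SB + TAA. The summed level of the ribosomal protein genes was 10700 CPM in SB/AKT/c-Met + TAA replicate 3, against 9280 to 9510 CPM in the others. Rpl3l, at 27.3 CPM in SB + TAA replicate 4, was in the liver with the high skeletal muscle markers. Rpl3l had 0.92 CPM in SB/AKT/c-Met + TAA replicate 3 and 1.32 CPM in SB/AKT/NRas + saline replicate 1, with 0 in the others of each group. Rpl39l had 0.672 CPM in SB + TAA replicate 1, 0.614 CPM in SB/AKT/c-Met + TAA replicate 3 and 0.334 CPM in SB/AKT/NRas + TAA replicate 1, again with 0 in the others, and Rps6 had 1.28 CPM in SB + saline replicate 4. These are 1 to 3 counts each except in SB + TAA replicate 4.

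In SB + saline, Rpl22 was 161 CPM in replicate 2 (others 216 to 227), Rpl22l1 64.6 CPM in replicate 1 (27.9 to 31.3), Rps27 3.41 CPM in replicate 2 (0.856 to 1.2) and Rps29 9.84 CPM in replicate 1 (13.6 to 14.2). In SB + TAA, Rpl15 was 14.7 CPM in replicate 3 (10.8 to 11.4), Rpl36a 1.97 CPM in replicate 2 (3.52 to 3.7) and Rpl36al 58.8 CPM in replicate 1 (53.3 to 53.6). In SB/AKT/NRas + saline, Rpl22l1 was 102 CPM in replicate 3 (40 to 47.7), Rps3a1 89.8 CPM in replicate 3 (56.4 to 60.5) and Rpl5 14.5 CPM in replicate 1 (11.5 to 11.7). Rpl7 was 12.3 CPM in SB/AKT/c-Met + TAA replicate 2 (20.6 to 21.8).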

How the results depend on the processing

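With library size alone, 46 members differed among the groups, and 52, 20, 25 and 45 passed in SB + TAA, SB/AKT/NRas + saline, SB/AKT/c-Met + TAA and also SB/AKT/NRas + TAA versus SB + saline, with medians of 0.702, 0.477, 0.546 and 0.566. Over all genes the medians were 0.465, 0.504, 0.412 and 0.462 in the same order, so that this scaling raised genes in general. The SB/AKT/c-Met + saline median was -0.0142, that of TAA within SB/AKT/c-Met livers 0.541, and 2 members passed for the TAA effect in SB/AKT/NRas against SB livers. The median for the TAA effect in SB/AKT/c-Met against SB livers reversed to -0.163 from 0.121. Summed means of SB + saline and SB/AKT/NRas + TAA became 6774 and 10732 CPM, and without Rpl41 those of SB/AKT/c-Met + TAA and also SB/AKT/NRas + TAA were 9048 and 9228 CPM. RLE factors and TMM without the members moved no count past 1.5 times.

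With DESeq2, 31 members differed among the groups, and 3, 5 and 8 passed for SB/AKT/NRas + saline, SB/AKT/c-Met + TAA and also SB/AKT/NRas + TAA versus SB + saline, 16 and 2 for TAA within SB/AKT/c-Met livers and SB/AKT/NRas livers, 0 for SB/AKT/NRas + TAA versus SB + TAA and 1 for the TAA effect in SB/AKT/NRas livers. Limma-voom gave 4 for SB/AKT/c-Met + TAA versus SB + saline and 0 for SB/AKT/NRas + TAA versus SB + TAA, as did filterByExpr, which also gave 1 for SB/AKT/NRas + saline; robust estimation gave 0 for the latter TAA pair. With no filter, 5, 1 and 2 passed for SB + TAA, SB/AKT/c-Met + TAA and also SB/AKT/NRas + TAA versus SB + saline, 1 for SB/AKT/c-Met + TAA relative to SB + TAA and 2 for the TAA effect in SB/AKT/NRas livers. Fits of only the groups compared gave 5, 8 and 9 versus SB + saline, 4 for TAA within SB/AKT/c-Met livers and 0 for SB/AKT/NRas + TAA versus SB + TAA. A fold threshold of 1 on the log2 scale left 2, 0 and 0 versus SB + saline and 0 for TAA within SB/AKT/c-Met livers. Shares of all genes called are not given for the alternative settings, so these counts compare settings only.

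With SB + TAA replicate 4 and also SB/AKT/NRas + saline replicate 1 left out together (chosen after seeing the data), 1, 2, 4 and 8 passed for SB + TAA, SB/AKT/NRas + saline, SB/AKT/c-Met + TAA and also SB/AKT/NRas + TAA versus SB + saline, 5 for TAA within SB/AKT/c-Met livers, 0 for SB/AKT/NRas + TAA versus SB + TAA (median -0.077) and 1 for the TAA effect in SB/AKT/NRas livers. In members with over 50% unique tags, also chosen afterwards, the medians for SB/AKT/c-Met + TAA and also SB/AKT/NRas + TAA versus SB + saline were 0.255 and 0.243.

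The livers share only replicate numbers: deviations of same-numbered livers had a mean correlation of -0.00717 over 55 pairs. With the replicate block, 8 members differed among the groups, and 4, 1 and 2 passed for SB + TAA, SB/AKT/c-Met + TAA and also SB/AKT/NRas + TAA versus SB + saline, 1 for TAA within SB/AKT/c-Met livers and 0 for SB/AKT/NRas + TAA versus SB + TAA. The highest correlation (0.404) was between livers of different number, against 0.144 for the same number.

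Leaving out 1 liver gave 9 to 23 members over the groups, 1 to 13 for SB + TAA, 0 to 2 for SB/AKT/NRas + saline, 1 to 4 for SB/AKT/c-Met + TAA and 0 to 8 for SB/AKT/NRas + TAA versus SB + saline, 0 to 5 for TAA within SB/AKT/c-Met livers, 0 to 1 for SB/AKT/NRas + TAA versus SB + TAA and 0 to 1 for the TAA effect in SB/AKT/NRas livers. Medians ranged from 0.0812 to 0.218 and 0.109 to 0.178 for SB/AKT/c-Met + TAA and also SB/AKT/NRas + TAA versus SB + saline, -0.225 to -0.0741 and -0.217 to -0.0742 for these groups versus SB + TAA, and 0.0982 to 0.242 for TAA within SB/AKT/NRas livers. The cause of these changes was not tested. DESeq2 gave no adjusted p for Rpl3l over the groups. Depth limits the members below 5 CPM most.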
